A study of Mus musculus with 4 samples.

Results

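In mouse embryonic stem cells, 354 long stretches of chromosomes 1 to 19 held no replication initiation zone that 2 replicate maps had in common. They were chosen by the zone positions of both maps. The maps are 2 lists of initiation zones, called set 1 and set 2. A shared interval was a run of neighbouring 1 kb bins that lay inside a zone of both sets. A stretch was an interval of 400 kb or more between neighbouring shared intervals. Of 17506 intervals between neighbouring shared intervals, 354 (2.02%) reached that length. Because of that choice, their numbers, lengths, zones, widths and scores are given as a description, without a test.

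The cells were E14tg2a, an embryonic stem cell line, and the material was genomic DNA from 4 samples, with 2 replicates of each of 2 lines. The parent line carried mAID-RNaseh2a::puroR(bi), which puts a degron on RNaseh2a, and Tet-OsTIR1::Rosa26(bi), an inducible partner of that degron, and the second line carried Pole1-M630F(bi) in addition. Both lines received doxycycline, which induces OsTIR1, together with auxinole for 24 h and then doxycycline with IAA for 12 h, and alkali-treated DNA fragments of 300 to 2000 bp were taken for sequencing. Each list carries the set number of the replicates, it is not stated which libraries entered it, and neither list separates the parent line from the mutant. The labels do not state whether replicates are separate cultures or whether a line is more than 1 clone. The read depth behind the zones is unknown.

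Replication of mammalian chromosomes starts in broad initiation zones, each used in some of the cells, and the DNA between zones is copied by forks that move in from the zones on either side. RNase H2 removes ribonucleotides from DNA, and RNaseh2a encodes its catalytic subunit. DNA polymerase ε copies the leading strand, and the M630F form of Pole1, its catalytic subunit, leaves extra ribonucleotides behind. In polymerase-usage sequencing these ribonucleotides show which strand the enzyme copied, and an initiation zone appears where that strand changes over. Long regions poor in initiation are a known feature of mammalian genomes, and some common fragile sites lie in such regions.

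The stretches were mostly just over the minimum length, with a small number of very long ones. Their median length was 466 kb (interquartile range 427 to 539 kb), against a median of 89 kb for all intervals between shared intervals. There were 218 stretches under 500 kb, 50 of 600 kb or more, 10 of 1000 kb or more and 3 of 2000 kb or more. Together they covered 189 Mb, or 7.87% of the chromosome span, counted between its outermost zones. The 10 longest made up 9.71% of that length. With the zones of set 2 alone, only 26 intervals between neighbouring zones reached 400 kb, and with the zones of set 1 alone 28. The zones of both sets were also lengthened by 5 kb at each end, so that zones with under 10 kb between them counted as shared. There were then 141 stretches, which covered at least 50% of 135 of the 354. Lengthening also moved each border at least 5 kb inward, so stretches little over 400 kb could drop out without any such close zones.

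The stretches just over the minimum held between 3 and 12 zones of both sets together. Among the 5 stretches of exactly 400 kb, 3 were taken in order of chromosome name. The stretch on chromosome 11 from 27557000 to 27956000 held 5 zones of set 1 and 4 of set 2. On chromosome 14, the stretch from 56196000 to 56595000 held 2 and 1, and on chromosome 7 the stretch from 84779000 to 85178000 held 5 and 7. The longest intervals left out held between 8 and 10 zones of both sets together. They were 399 kb on chromosome 2 from 42068000 with 6 and 3 zones, and 398 kb on chromosome 7 from 60652000 with 6 and 4 and from 82555000 with 4 and 4. All positions are those of the first and last 1 kb bin in GRCm39, as the lists give them.

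Most stretches were not empty but held zones of both sets that failed to coincide. Whole zones of both sets lay inside 348 of the 354 stretches (98.3%). Long intervals have room for several zones, so this share is in part given by length. With 300 kb as the minimum it was 95.2% of 1013. In all, the stretches held 1520 whole zones of set 1 and 1375 of set 2, and by the rule none of them overlapped a zone of the other set. A stretch held a median of 4 zones of set 1 (interquartile range 3 to 5, highest 13) and 4 of set 2 (3 to 5, highest 16). Set 1 had more zones in 172 stretches, set 2 had more in 121, and the numbers were equal in 61.

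**Figure D1:**
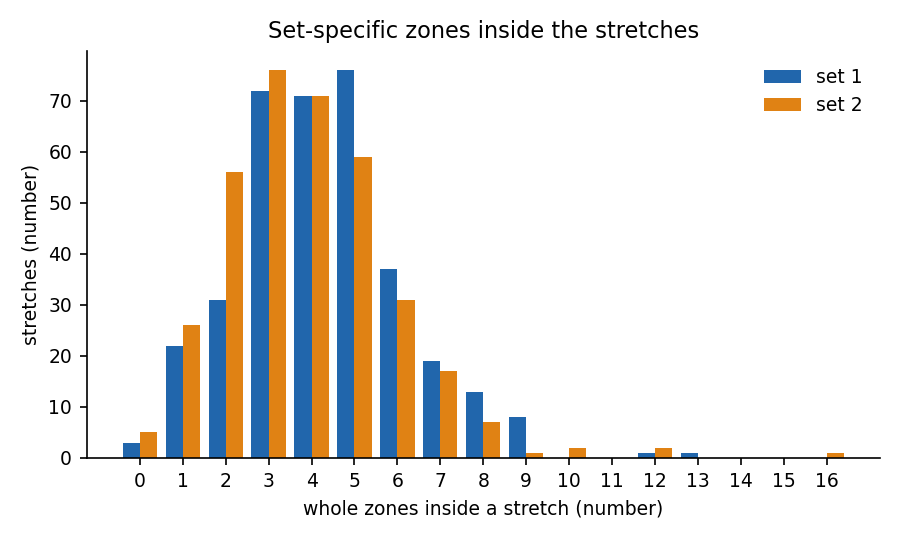
Number of stretches (vertical axis) by the number of whole zones inside them (horizontal axis), for set 1 and set 2. Both sets peak between 3 and 5 zones per stretch, and the highest numbers are 13 in set 1 and 16 in set 2.

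Whole zones were fewer per Mb inside the stretches than along the chromosomes, but not fewer than in the next shorter intervals. Whole zones numbered 8.04 per Mb in set 1 and 7.28 per Mb in set 2, against 11.6 and 10.1 per Mb over the whole span. Intervals of 200 to under 400 kb, of which there were 2634, held 7.99 and 6.44 per Mb. Shorter intervals have less room for a whole zone, so their lower values are in part given by the count of whole zones. Zones of set 1 covered 15.8% of the stretch length and zones of set 2 covered 15.1%, border zones that reach in included. In intervals of 200 to under 400 kb the covered shares were slightly higher, at 17.0% and 16.6%, and over the whole span they were 32.0% and 32.8%. Within a stretch the rule removes every bin that both sets cover, and no whole zone inside can overlap a zone of the other set. This lowers the counts per Mb and the covered shares of both sets against the whole span.

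Counted as whole zones, the surplus of set 1 was smaller inside the stretches than in the other intervals. Inside the stretches there were 1.11 zones of set 1 for each zone of set 2. The ratio was 1.24 in intervals of 200 to under 400 kb, 1.29 in all 17152 other intervals and 1.15 over all zones of the span.

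Stretches with many zones and stretches with hardly any lay side by side in the same class. The longest part of a stretch free of both sets' zones had a median of 91 kb (interquartile range 72 to 127 kb, from 36 to 2095 kb). In 314 stretches (88.7%) this part was under 200 kb. These stretches held 9.08 zones of set 1 and 8.20 of set 2 per Mb, and the longest of them was 835 kb. In the other 40 (11.3%), which made up 19.6% of the length, zones numbered 3.78 and 3.46 per Mb and covered 6.63% and 5.99%. A zone-free part of 400 kb or more, long enough to meet the rule alone, was present in 18 stretches. The limit of 200 kb was set after the values were seen. A split by zone-free length in part gives the lower density and coverage of the 40.

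Long zone-free parts were most frequent among the longest stretches. A longer stretch has more room for such a part, and a long zone-free part itself makes a long stretch, so this is in part given by length. Of the 218 stretches under 500 kb, 11 had a zone-free part of 200 kb or more, and of the 86 stretches of 500 to under 600 kb, 6 did. Among the 40 of 600 to under 1000 kb there were 13, and all 10 of 1000 kb or more had one. In those 10, zones of set 1 and of set 2 each numbered 3.49 per Mb.

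**Figure D2:**
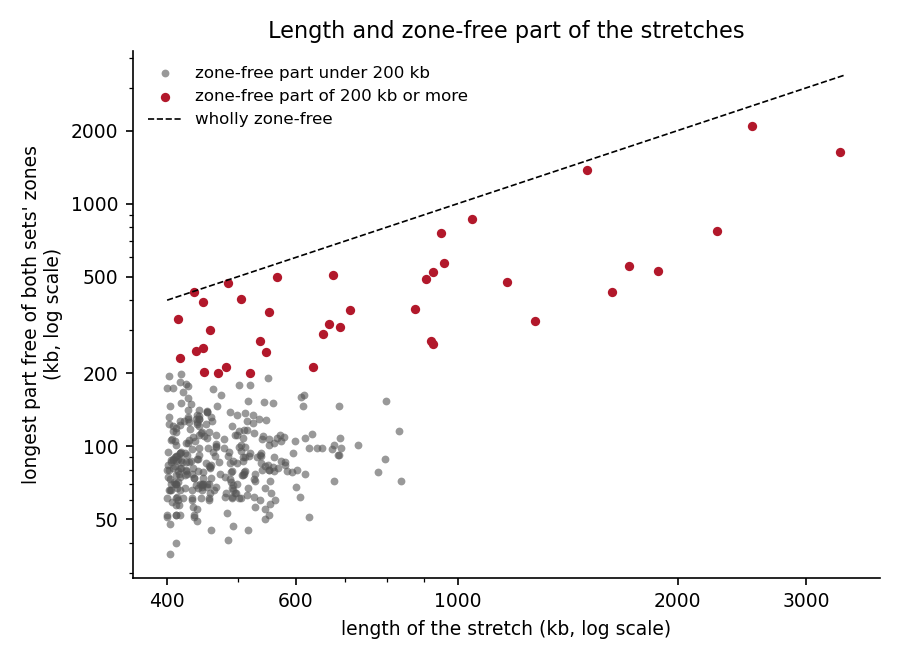
Longest part free of zones of both sets (vertical axis, kb, log scale) against stretch length (horizontal axis, kb, log scale), with 1 point per stretch and a dashed line where the whole stretch would be zone-free. The 314 points under 200 kb form a cloud up to a length of 835 kb, and the 40 red points reach 2095 kb.

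How many zones of set 1 a stretch held was only weakly related to how many of set 2 it held. Across the 354 stretches, the rank correlation between zones per Mb of set 1 and of set 2 was 0.204, for covered share it was 0.192, and for summed score 0.174. In the 314 stretches with a zone-free part under 200 kb, the values were 0.0294, -0.00346 and 0.0986. The points share the rule, under which a bin in a zone of 1 set cannot be in a zone of the other, and no p-value is given.

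The longest stretch lay on chromosome 7, and the 10 longest lay on 6 chromosomes. On chromosome 7 from 19735000 to 23073000, 3339 kb held 5 zones of set 1 and 1 of set 2, and 95.1% of the bins were in no zone. Chromosome 5 from 93608000 to 96140000 (2533 kb) held 3 zones of each set and was 96.4% free. Chromosome 14 from 16167000 to 18430000 (2264 kb) held 9 zones of set 1 and 16 of set 2. This last stretch was 90.4% free all the same, since zones covered only 115 kb in set 1 and 102 kb in set 2.

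Chromosome 4 held 3 of the 10 longest stretches. The stretch from 60000000 to 61878000 (1879 kb) held 12 zones of set 1 and 9 of set 2, and with the border zones set 1 covered 212 kb of it and set 2 only 78 kb. The stretch from 111588000 to 113301000 (1714 kb) held 9 and 7 zones. The stretch from 41840000 to 42885000 (1046 kb) held 2 and 2, and 862 kb of it formed 1 zone-free part. These 3 stretches ranged from 84.6% to 95.5% zone-free.

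The others among the 10 lay on chromosomes 7, 2 and 12. Chromosome 7 from 7557000 to 9183000 (1627 kb) held 8 zones of each set. Chromosome 2 from 175004000 to 176508000 (1505 kb) held 1 zone of set 1 and 3 of set 2, and chromosome 12 from 23324000 to 24491000 (1168 kb) held 8 and 5. A different picture came from chromosome 2 from 100045000 to 101319000 (1275 kb), which was only 63.8% free. Its 7 zones of set 1 and 10 of set 2 covered 222 and 239 kb with the border zones, and its highest inside scores were 51.3 in set 1 and 32.5 in set 2. The score is the authors' own number per zone, on an unstated scale, and its median was 7.18 over all zones of set 1 and 8.50 over those of set 2.

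**Figure D3:**
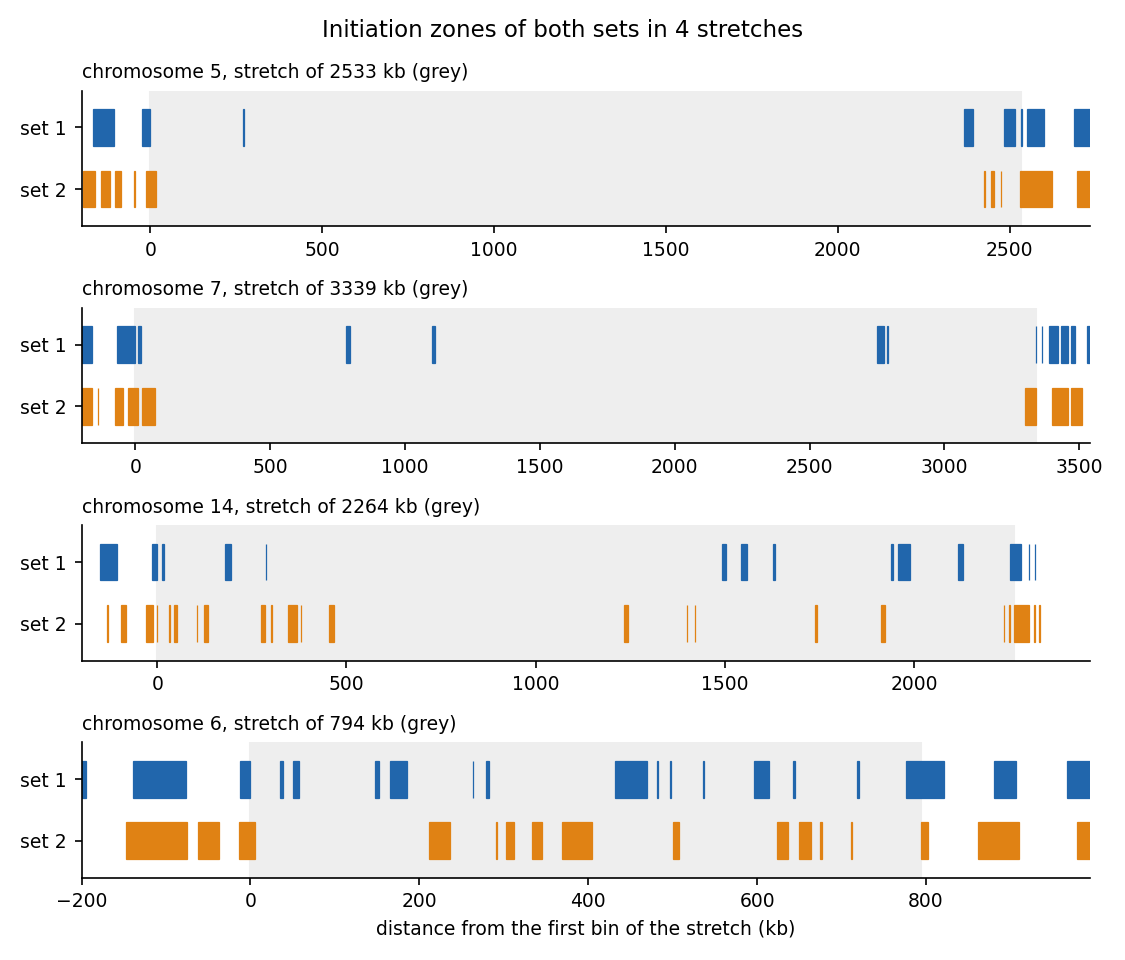
Zones of set 1 (blue) and set 2 (orange) in 4 stretches (grey) with 200 kb on either side, against the distance in kb from the first bin of the stretch. The stretches of 2533 kb on chromosome 5 and 3339 kb on chromosome 7 are nearly empty, while those of 2264 kb on chromosome 14 and 794 kb on chromosome 6 hold 25 and 23 zones that do not overlap between the sets.

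The longest zone-free parts lay inside the longest stretches, where length leaves the most room for them. They measured 2095 kb on chromosome 5 from 93881000, 1637 kb on chromosome 7 from 20846000 and 1371 kb on chromosome 2 from 175022000. The next were 862 kb on chromosome 4 from 41843000 and 768 kb on chromosome 14 from 16633000. These parts filled between 33.9% and 91.1% of their stretches, so the part on chromosome 14 was a minor share of a stretch that was divided by scattered zones.

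In 6 stretches at least 1 set had no whole zone. No whole zone of either set lay on chromosome 13 from 119576000 to 120059000 (484 kb) or on chromosome 7 from 25610000 to 26045000 (436 kb). Zones of set 1 alone lay on chromosome 14 from 52989000 (691 kb, 2 zones) and from 14701000 (403 kb, 4 zones), and on chromosome 8 from 72209000 (448 kb, 1 zone). Zones of set 2 alone lay on chromosome 17 from 40067000 (505 kb, 2 zones). The empty stretches had at least 1 border that was strong in both sets. On the right of the chromosome 7 stretch, the border zones scored 113 in set 1 and 115 in set 2, and on its left 33.6 and 8.33. On the left of the chromosome 13 stretch they scored 102 and 89.7, and on its right 48.95 and 30.8.

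The most crowded stretches showed how far the sets could miss each other. After the chromosome 14 stretch from 16167000, with 25 zones, came chromosome 6 from 46284000 to 47077000, where 13 zones of set 1 and 10 of set 2 lay in 794 kb. Its longest zone-free part was only 89 kb. Chromosome 4 from 60000000 held 21 zones, chromosome 8 from 81741000 to 82575000 (835 kb) held 20, and chromosome 2 from 100045000 held 17. On chromosome 8 the 8 zones of set 1 covered less than the 12 of set 2, with 95 kb against 174 kb including border zones.

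The zones inside the stretches were mostly weak and narrow, but less so than the zones found in 1 set elsewhere. Inside zones had a median score of 3.67 (set 1) and 2.61 (set 2), against 1.94 and 1.58 for the set-specific zones of all other intervals. Median widths were 11 kb (set 1) and 9 kb (set 2) inside the stretches and 7 kb in both sets elsewhere. Only whole zones are counted, so short intervals have less room for wide zones, which in part gives the width difference. In intervals under 50 kb the median widths were 2 and 2.5 kb and the median scores 0.576 and 0.625. How far room bears on the scores was not tested. Intervals of 200 to under 400 kb had median scores between these, 2.44 and 2.04, and a median width of 9 kb in both sets, which in set 2 equals that of the stretches. Zones of a single bin made up 16.9% of the inside zones of set 1 and 17.5% of those of set 2, against 19.5% and 19.2% in all other intervals.

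Few strong zones lay inside the stretches, but zones in the upper 50% of scores were a larger share there than in the other intervals. Of the inside zones, 559 in set 1 (36.8%) and 367 in set 2 (26.7%) ranked in the upper 50% of scores of their own set, against 24.4% and 18.7% in all other intervals. Only 10 zones of set 1 (0.658%) and 3 of set 2 (0.218%) ranked in the highest 10%, against 0.216% and 0.158% in all other intervals. In intervals of 200 to under 400 kb, 29.2% and 22.9% ranked in the upper 50%. There, 0.322% and 0.244% ranked in the highest 10%, which in set 2 is above the share of the stretches. In intervals under 50 kb, 2.44% and 3.70% ranked in the upper 50%. Only whole zones are counted, so shorter intervals have less room for wide zones. How far this bears on these shares was not tested. At least 1 zone of the upper 50% lay inside 297 stretches in set 1 and inside 240 in set 2. In 201 stretches both sets had such a zone, at different places, and in 18 neither set had one. These counts depend on how many zones a stretch holds and were not set beside those of other intervals.

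The strongest inside zones of set 1 lay on 5 different chromosomes, as did those of set 2. In set 1 the highest score, 84.5, belonged to a 67 kb zone on chromosome 13 from 66580000 to 66646000. The nearest zone of set 2 was 33 kb away. The next scores of set 1 were 79.3 on chromosome 9 from 41364000, 71.03 on chromosome 12 from 101127000, 68.6 on chromosome 5 from 10953000 and 67.2 on chromosome 7 from 4071000. The last of these lay 98 kb from the nearest zone of set 2, the widest separation among the 10.

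In set 2 the highest score inside a stretch, 80.6, belonged to a 63 kb zone on chromosome 8 from 94143000 to 94205000. Zones on chromosome 1 from 144232000 (78.6), chromosome 5 from 138644000 (75.3), chromosome 12 from 93895000 (72.8) and chromosome 6 from 141701000 (69.4) followed. Of these 5 zones, 4 lay at most 7 kb from a zone of set 1. The zone on chromosome 12 directly adjoined one, with 0 kb between them.

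Close misses between the sets were common in the stretches, as they were elsewhere. The nearest zone of the other set lay a median of 19 kb away for the inside zones of set 1 (interquartile range 8 to 37 kb) and 18 kb away for those of set 2 (7 to 35 kb). A zone of the other set lay within 10 kb of 485 inside zones of set 1 (31.9%) and of 472 inside zones of set 2 (34.3%). In intervals of 200 to under 400 kb the shares were 32.0% and 36.0%, close to those of the stretches. At least 1 inside zone within 10 kb of the other set was present in 273 stretches (77.1%). This last share depends on how many zones a stretch holds and was not set beside that of other intervals.

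From one inside zone to the next, the sets changed over about as often in the stretches as in shorter intervals. Of 2543 neighbouring pairs of inside zones, 1549 (60.9%) joined a zone of set 1 with a zone of set 2. The share was 60.7% in intervals of 200 to under 400 kb.

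By their medians, the zones at the borders of the stretches were close to those at the borders of other intervals. Each border is a shared interval, where exactly 1 zone of each set overlap, and the 354 stretches have 708 borders. In 7 pairs of stretches 1 shared interval borders both, and it is counted for each. The shared interval had a median length of 15 kb (interquartile range 4 to 43 kb), against 14 kb at the borders of all other intervals and 17 kb at those of 200 to under 400 kb. Border zones had a median width of 43 kb (set 1) and 50 kb (set 2), against 38 and 49 kb for all other intervals. Median scores were 25.5 in set 1 and 32.5 in set 2, against 22.6 and 30.03. Beside intervals of 200 to under 400 kb, with 24.6 and 32.6, the score difference was small in set 1 and had the opposite sign in set 2. With 500 kb as the minimum, the border zones fell slightly below those of all other intervals, with a ratio of median scores of 0.981 and of median widths of 0.963 (means of both sets).

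Strong borders were more frequent than at other intervals. In set 1, 177 of the 708 border zones (25.0%) ranked in the highest 10% of all zones of the set, and in set 2, 184 (26.0%). The share was 19.8% in each set at all other intervals, and 22.4% and 23.2% at intervals of 200 to under 400 kb. At 106 borders (15.0%) both zones did, against 8.31% at all other intervals and 12.2% at intervals of 200 to under 400 kb. Both borders were of this kind in 8 stretches, 1 border in 90, and no border in 256. At the other end, 81 borders (11.4%) rested on a shared interval of a single bin, close to the 11.2% of all other intervals.

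Borders were also ranked by the lower of the percentile ranks of their zones in the 2 sets, and the first 3 lay on chromosomes 17, 13 and 5. On chromosome 17, the stretch from 62440000 to 62887000 (448 kb) had on its left a zone that ran from 62318000 to 62439000 in set 1, with a score of 159, and from 62294000 to 62452000 in set 2, with a score of 212. On chromosome 13, the stretch from 108780000 to 109305000 (526 kb) had on its right zones scoring 154 and 209. On chromosome 5, the stretch from 71831000 to 72277000 (447 kb) had on its right zones scoring 149.9 and 210.4. These stretches were picked with their values known.

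Stretches with a long zone-free part had thinner borders than the rest. Where the zone-free part was 200 kb or more, 36 of 80 borders (45%) rested on a shared interval of 5 kb or less, against 173 of 628 (27.5%) at the other stretches and 29.7% at all other intervals. At the 10 longest stretches it was 10 of 20. The limit of 200 kb was set after the values were seen, and a shared interval between adjoining stretches is counted for each of them. The right border of the longest stretch, on chromosome 7, was 1 bin, where a zone of 1 kb in set 1 with a score of 0.0524 met a zone of 40 kb in set 2 with a score of 21.9.

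At most borders, as at those of other intervals, the zone of 1 set went on inward after that of the other had ended. A shared interval ends with the first of its zones to end, so this is largely given by its definition. The zone of set 2 reached further in at 378 borders (53.4%) and that of set 1 at 304 (42.9%), and both ended at the same bin at 26 (3.67%). At all other intervals the shares were close to these, at 53.5%, 43.9% and 2.54%. Where a zone reached into a stretch, the median reach was 15 kb for set 1 and 16 kb for set 2, and the longest was 90 and 95 kb. Set 2, which reached in at more borders, also had the wider border zones.

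Outside the borders, zone coverage returned to the level of the whole span within about 100 kb. From 101 to 500 kb outside a stretch, 32.1% of bins lay in a zone of set 1, 33.1% in a zone of set 2 and 16.7% in both. Over the whole span, 16.3% of bins lay in both. For intervals of 200 to under 400 kb the same flanks gave 32.1%, 32.7% and 16.3%. Inside, coverage fell to 13.4% in set 1 and 11.9% in set 2 at 40 to 59 kb from the border, and 180 to 199 kb in it stood at 16.4% and 14.5%.

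**Figure D4:**
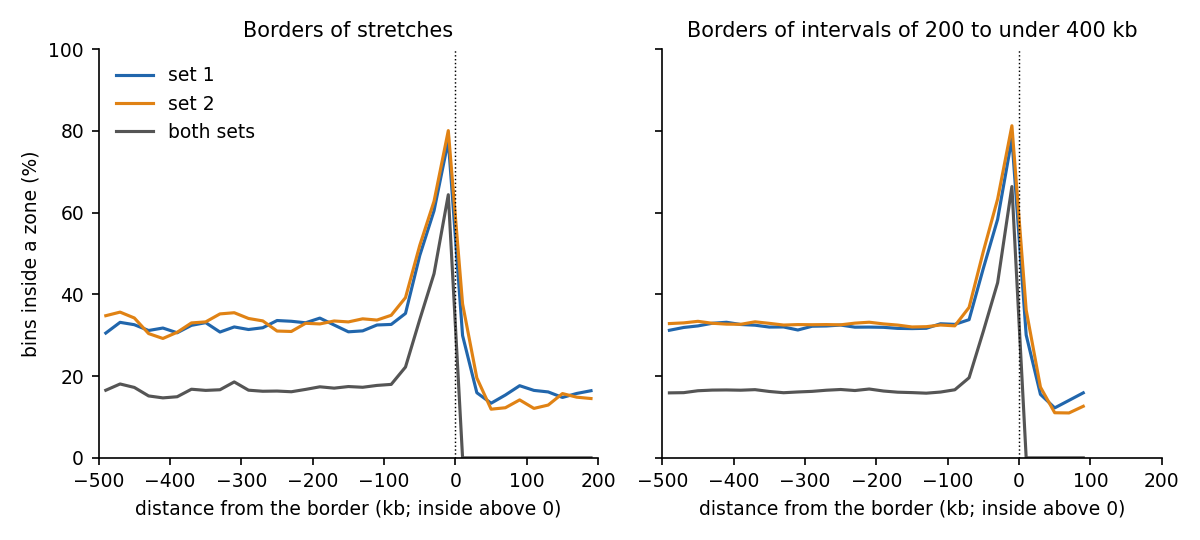
Share of bins inside a zone of set 1, of set 2 and of both sets (vertical axis, %) against the distance from the border in kb, in steps of 20 kb, with positive distances inside the interval. Left, borders of the 354 stretches; right, borders of the 2634 intervals of 200 to under 400 kb, which are drawn to 100 kb inside. Outside, both panels level off near 32% to 33% for each set and near 16% to 17% for both.

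Every chromosome from 1 to 19 held stretches, and chromosome 7 held the most. Chromosome 7 had 31 stretches, 2.96% of its intervals, which covered 13.7% of its span. Chromosome 14 followed by share of the span, with 20 stretches over 9.94%, then chromosome 4 with 22 over 9.15% and chromosome 17 with 17 over 9.03%. The lowest shares were those of chromosome 11 (10 stretches, 3.66%) and chromosome 9 (11 stretches, 4.14%). The density was 14.7 ± 3.06 stretches per 100 Mb (mean ± SD over 19 chromosomes), with 21.9 on chromosome 7 and 8.42 on chromosome 11.

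Stretches with a zone-free part of 200 kb or more were unevenly spread. Of the 40, chromosome 14 held 8 and chromosome 7 held 7, chromosome 8 held 5, chromosome 4 held 4, and 13 chromosomes held at least 1. Chromosomes 1, 3, 9, 11, 18 and 19 held none. Without these 40 stretches, chromosome 7 still had the highest share of its span in stretches (8.12%), while chromosome 14 dropped to 4.45%.

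On the 13 chromosomes without any of the 10 longest, the longest stretch was between 511 and 924 kb. It was 924 kb on chromosome 6 from 122686000, 919 kb on chromosome 8 from 21322000, 797 kb on chromosome 3 from 98273000 and 731 kb on chromosome 15 from 13100000. It was 691 kb on chromosome 1 from 100833000, 687 kb on chromosome 17 from 52158000, 678 kb on chromosome 13 from 78390000 and 631 kb on chromosome 16 from 28799000. The remaining ones were 611 kb on chromosome 18 from 69950000, 566 kb on chromosome 9 from 74179000, 553 kb on chromosome 10 from 123070000, 544 kb on chromosome 19 from 7983000 and 511 kb on chromosome 11 from 48043000. All 13 held zones of both sets, and their longest zone-free parts ranged from 72 to 272 kb.

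Stretches were more frequent toward the low-coordinate end of the chromosomes, which in the mouse is the centromeric end. The first 50% of the span held 208 stretches (2.44% of its 8534 intervals) and the second 50% held 146 (1.63% of 8972). The first part held more stretches on 16 chromosomes and the second part on 2, with 1 tie. The same direction was found without the 40 stretches that had a zone-free part of 200 kb or more, with 181 against 133. When zones were counted as shared only where each covered at least 50% of the other, the share of stretches in the first part was 49.2%, against 58.8% under the rule used here. In steps of 10% of the span, the share was highest from 10% to 20% (2.80%) and lowest from 90% to 100% (1.38%). The first 10 Mb of the chromosomes held 32 stretches (2.37% of intervals) and the last 10 Mb held 20 (1.38%).

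**Figure D5:**
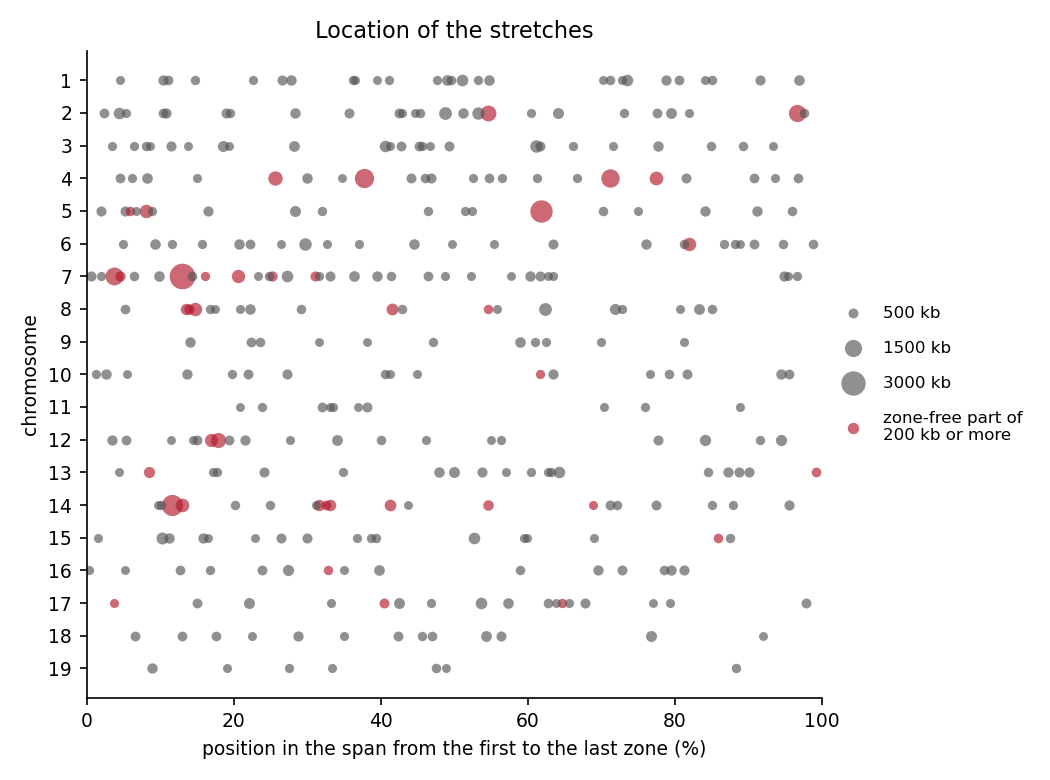
Midpoint of each stretch between the outermost zones of its chromosome (horizontal axis, % of that span) on chromosomes 1 to 19 (vertical axis), with the marker area proportional to stretch length. Red markers are the 40 stretches with a zone-free part of 200 kb or more, 8 of them on chromosome 14 and 7 on chromosome 7; grey markers are the other 314.

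Most stretches stood alone. The next stretch along the chromosome was a median of 3995 kb away (interquartile range 1541.5 to 8105 kb, over 335 pairs). The interval next to a stretch was itself a stretch in 14 of 708 cases (1.98%), close to the 2.02% of all intervals. For neighbours 1 to 5 intervals away the share was 2.37%, and for those 6 to 10 away 2.27%. Single steps ranged from 1.13% for those exactly 2 away (4 pairs) to 3.96% for those exactly 4 away (14 pairs). With 300 kb as the minimum, 1013 intervals counted as stretches, and the next interval was one of them in 5.13% of cases, against 5.79% of all intervals. With 500 kb, which left only 136 stretches, it was 1.47%, against 0.777% of all intervals. Of 502 windows of 5 Mb, 221 held no part of a stretch, 198 were touched by 1, 61 by 2, 16 by 3 and 6 by 4.

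A few stretches nevertheless adjoined. In 7 pairs only 1 shared interval lay between the stretches. The longest such pair was on chromosome 7, where stretches of 1627 and 546 kb met at a shared interval of 5 kb that ended just before 9189000. The zones there scored 9.90 in set 1 and 14.4 in set 2. On chromosome 8, stretches of 666 kb from 19852000 and 552 kb from 20528000 were 10 kb apart, and on chromosome 14, stretches of 412 kb from 40959000 and 653 kb from 41373000 were 2 kb apart. The dividing zone on chromosome 14 was 2 kb wide with a score of 0.760 in set 1, and 44 kb wide with a score of 28.3 in set 2.

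Some 5 Mb windows lay largely in stretches. On chromosome 14 from 15000000 to 19999000, 4 stretches took up 75.4% of the window. The stretches of 2264 and 948 kb there were 55 kb apart, with 3 shared intervals of 22 kb in all between them. Chromosome 7 from 20000000 to 24999000 followed with 70.7%, chromosome 12 from 20000000 to 24999000 with 55.2% and chromosome 7 from 5000000 to 9999000 with 52%. On chromosome 12, stretches of 874 and 1168 kb were separated by 13 kb that held 2 shared intervals of 2 kb in all. The median window had 8% of its length in stretches, and these windows, too, were picked with their values known.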

How the data were processed

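Zones were mapped in E14tg2a cells by polymerase-usage sequencing. The submitters' processing notes name Bowtie2 and the build GRCm39. The Bowtie2 version, the zone caller and the libraries behind each list were not given in the sources used here. The authors deposited 2 lists with first position, last position and a score per zone, of unstated scale, so scores were compared within a list only. Both positions were read as 1 kb bins, the last one included. Shared intervals, the intervals between them, and the zones and zone-free bins inside were computed with Python 3.11.15, NumPy 2.4.6, pandas 2.3.3 and SciPy 1.17.1, and drawn with Matplotlib 3.10.9. The code was tested on simulated lists with planted stretches and against a bin-by-bin count.

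The stretches and all choices were made with earlier results of these lists known. Regions were named by rule: the 10 longest stretches, the longest of each chromosome, 3 on either side of 400 kb, 5 with the longest zone-free part, 5 with the most zones, the 5 highest inside scores per set and 3 adjoining pairs. Genes, base composition, assembly gaps and sequence were not analysed here, since the reference tables are on another genome build. Read counts were not used here, so no counting error is given.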

Additional observations from a re-analysis of the deposited data

How the results depend on the processing

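Of 123 comparisons of a result with its value under another setting, 72 stayed within the limits used, 49 moved beyond them and 2 changed direction. The limit was a fixed ratio for numbers and lengths, an exact binomial interval for shares of stretches, and the SD of the values of both sets otherwise. The binomial interval treats stretches as independent. Some results could not move, such as the longest stretch under another minimum length, so the 72 are no measure of robustness. With minimum lengths of 300 and 500 kb there were 1013 and 136 stretches of 413 and 93.3 Mb, with shared intervals of 5 or more bins 713 of 396 Mb, with a reciprocal overlap of 50% or more 1981 of 1578 Mb, and with zones lengthened by 5 kb 141 of 79.8 Mb, which covered at least 50% of 135 of the 354 stretches. Leaving out a set gave 26 to 28 stretches of 19.9 to 20.03 Mb, with a longest of 2095 to 3227 kb. Their share in the first part of the span was 65.4% to 67.9%. All of them met a stretch of the main rule, which is no sign of agreement. An interval without zones of 1 set holds no shared bin, so between the outermost shared intervals it must lie in a stretch. In the order of 300 kb, 5 bins, reciprocal overlap and lengthened zones, the share with zones of both sets was 95.2%, 99.4%, 99.9% and 90.8%. The share with a zone-free part of 200 kb or more was 5.23% at 300 kb, 21.3% at 500 kb, 6.03% with 5 bins, 15.7% with overlapping zones united and 2.83% with reciprocal overlap. The next interval was a stretch in 5.13%, 4.78% and 38.1% of cases at 300 kb, with 5 bins and with reciprocal overlap, against 5.79%, 5.54% and 39.6% of all intervals. Reciprocal overlap put 49.2% of stretches in the first part of the span. Zones per Mb, 7.66 as the mean of both sets, were 9.50 with 5 bins, 10.5 with reciprocal overlap, 6.77 without the lowest 10% of scores, 6.81 with the last position left out and 8.23 with zones counted by midpoint. Covered length, 15.4% as the mean of both sets, was 16.3% at 300 kb, 13.5% at 500 kb, 18.4% with 5 bins, 12.4% with zones united, 26.5% with reciprocal overlap, 16.02% without the lowest 10% of scores and 14.7% with X added. The ratio of inside to other set-specific scores, 1.77, was 1.51, 1.35, 1.54 and 1.60 with 5 bins, reciprocal overlap, without the lowest 10% and with the last position left out. The ratio of border scores, 1.11, was 1.05 at 300 kb, 0.981 at 500 kb, 1.07 without the lowest 10% and 1.02 against intervals of 200 to under 400 kb, and that of border widths, 1.08, was 0.963 at 500 kb. Stricter sharing and shorter minimum lengths give more stretches by construction, and the cause of the other changes was not tested. Every shared interval has 1 zone of each set, so taking its best-scoring zone as the border zone changed nothing. The lengthened zones, the count by position without zone-poor stretches and the borders of 200 to under 400 kb were chosen after seeing the data. The planned comparison with genes and base composition was not run. No paired analysis was possible because neither list gives the parent and mutant libraries a value of their own. Read depth is unknown, so no limit from depth can be given.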

Other observations

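The X chromosome, outside the rule used above, held 41 stretches of 400 kb or more among 1186 intervals (3.46%). They covered 28.4 Mb, or 17.1% of its span, above the 13.7% of chromosome 7, the highest among chromosomes 1 to 19. A zone-free part of 200 kb or more was present in 14 of the 41 (34.1%), against 11.3% on chromosomes 1 to 19. Without those 14, stretches covered 7.55% of X, below the 8.12% of chromosome 7. Zones of both sets lay inside 34 of the 41 stretches. The longest ran from 122073000 to 125195000 (3123 kb, with 10 zones of set 1 and 11 of set 2), and the next from 26815000 to 29349000 (2535 kb) with no zone of set 1 and 1 of set 2. The latter was followed, after a shared interval of 2 bins, by a stretch from 29352000 to 30838000 (1487 kb) with no zone of set 1 and 2 of set 2.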
